A study of Arabidopsis thaliana with 20 samples.

Results

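A set of 10 clock output and photoperiod genes was followed in inflorescences of Arabidopsis thaliana that carry gain or loss of DVL/RTFL genes, which encode small signalling peptides of plants. The 10 genes are CCR2 (also GRP7, AT2G21660), CCR1 (also GRP8, AT4G39260), CO (AT5G15840), COL1 (AT5G15850), COL2 (AT3G02380), CDF1 (AT5G62430), CDF2 (AT5G39660), CDF3 (AT3G47500), FKF1 (AT1G68050) and PIF4 (AT2G43010). They were picked by name out of 37336 genes in the deposited table, with earlier results from the same libraries known, above all those of the dvl1-1D line. Comparisons that hold dvl1-1D are therefore given as a description, without a p-value for a member.

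RNA was sequenced from whole inflorescences in 5 groups of 3 biological replicates, 15 libraries in all. dvl1-1D is a dominant gain-of-function allele of DVL1. 35S:DVL8 is 1 transgenic line that expresses DVL8 from the broadly active viral 35S promoter. The dvl1 quintuple mutant is dvl1 dvl8 dvl11 rtfl11 dvl19, and the rtfl9 quintuple mutant is dvl8 dvl11 rtfl9 rtfl11 dvl19, so the mutants share 4 of their 5 mutated genes. Wild type was the accession Col-0. A further 5 libraries, 1 per group, had been set aside by the submitters as outliers and were not analysed here.

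Each library held between 22471890 and 36589874 reads assigned to genes. DVL1 stood at 524.7 to 611.8 RPKM (assigned reads scaled by gene length and by library size) in dvl1-1D and was listed at 0 in wild type, and DVL8 stood at 151.7 to 173.4 RPKM in 35S:DVL8 and at most at 0.238 RPKM in any other group. Both genes were near 0 in wild type, so their levels check the overexpression lines but not the mutants. The summed level of 8 floral and meristem genes (AP1, AP3, PI, AG, SEP3, LFY, CRC and STM) was 472.7 to 513.5 RPKM in dvl1-1D and 443.5 to 466.8 RPKM in wild type, and every one of the 8 was detected in these groups. Seed storage genes summed to at most 0.184 RPKM in any library.

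The plant circadian clock is a loop of transcriptional repressors and activators: the morning factors CCA1 and LHY act on evening genes by binding a short promoter sequence, the evening element, and PRR proteins repress CCA1 and LHY in turn. Clock output genes carry this rhythm to the rest of the plant. In the photoperiod pathway the CDF repressors hold down transcription of CO, the light-sensing F-box protein FKF1 removes CDF proteins in the long-day afternoon, and CO protein then activates the florigen gene FT.

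Promoter sequences are shown for the 5 members in which a searched motif was found, since the clock acts on output genes through such sites. Each is the 300 bases before the annotated gene start, from the RefSeq TAIR10.1 genome, read 5′ to 3′ on the strand of the gene, with motif matches in capitals. The evening element AAAATATCT, or its reverse complement AGATATTTT, is capitalised in the first 4 and the G-box CACGTG, a light and clock element, in CDF2. The windows are chr2:9266558-9266857 for CCR2, chr4:18275217-18275516 for CCR1 and chr3:489468-489767 for COL2, all on the minus strand, and chr1:25508339-25508638 for FKF1 and chr5:15878398-15878697 for CDF2, both on the plus strand.
CCR2: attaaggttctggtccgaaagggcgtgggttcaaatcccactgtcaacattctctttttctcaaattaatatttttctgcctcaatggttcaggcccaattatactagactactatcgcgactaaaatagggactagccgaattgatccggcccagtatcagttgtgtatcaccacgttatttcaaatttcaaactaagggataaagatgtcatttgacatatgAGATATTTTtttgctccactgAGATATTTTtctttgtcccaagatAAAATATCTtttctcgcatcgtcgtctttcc
CCR1: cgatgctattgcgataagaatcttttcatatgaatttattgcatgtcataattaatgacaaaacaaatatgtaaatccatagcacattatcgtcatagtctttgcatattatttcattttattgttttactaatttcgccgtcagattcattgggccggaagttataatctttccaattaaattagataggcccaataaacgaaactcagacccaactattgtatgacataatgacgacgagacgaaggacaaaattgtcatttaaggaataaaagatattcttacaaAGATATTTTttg
COL2: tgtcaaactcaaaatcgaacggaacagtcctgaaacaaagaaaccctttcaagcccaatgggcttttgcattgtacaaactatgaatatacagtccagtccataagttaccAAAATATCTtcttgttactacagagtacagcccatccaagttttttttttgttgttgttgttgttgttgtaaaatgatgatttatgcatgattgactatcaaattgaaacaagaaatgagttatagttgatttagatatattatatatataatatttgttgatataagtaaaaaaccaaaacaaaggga
FKF1: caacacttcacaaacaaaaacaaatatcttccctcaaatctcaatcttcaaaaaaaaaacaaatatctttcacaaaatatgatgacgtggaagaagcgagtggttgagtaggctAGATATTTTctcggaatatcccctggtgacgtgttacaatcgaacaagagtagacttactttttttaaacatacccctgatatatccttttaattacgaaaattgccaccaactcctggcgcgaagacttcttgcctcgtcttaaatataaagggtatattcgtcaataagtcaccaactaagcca
CDF2: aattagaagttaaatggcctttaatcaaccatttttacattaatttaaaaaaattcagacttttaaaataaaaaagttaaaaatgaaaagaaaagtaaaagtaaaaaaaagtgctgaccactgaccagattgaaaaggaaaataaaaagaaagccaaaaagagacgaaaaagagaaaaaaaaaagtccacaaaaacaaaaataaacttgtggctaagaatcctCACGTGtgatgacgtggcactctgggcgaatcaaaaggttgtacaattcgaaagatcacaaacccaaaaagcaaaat

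CCR2 held 3 evening elements within 76 bases of its start, at 76 to 68, 55 to 47 and 31 to 23 bases upstream. CCR1 held 1 at 12 to 4 bases, COL2 held 1 at 189 to 181 bases, and FKF1 held 1 at 186 to 178 bases with another farther out at 373 to 365 bases. Among 27443 protein-coding genes, 2.79% had the element in the 300-base window and 7.24% in a 1000-base window, both strands searched. The G-box of CDF2 lay 77 to 72 bases upstream, and 7.09% of promoters held that motif within 300 bases and 14.8% within 1000. The CCA1-binding site AAAAATCT, with its reverse complement AGATTTTT, was found only in CCR1, at 689 to 682 bases, and 21.1% of promoters held it within 1000 bases. CO, COL1, CDF1, CDF3 and PIF4 had none of these letters in the 1000 bases searched.

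**Figure D1:**
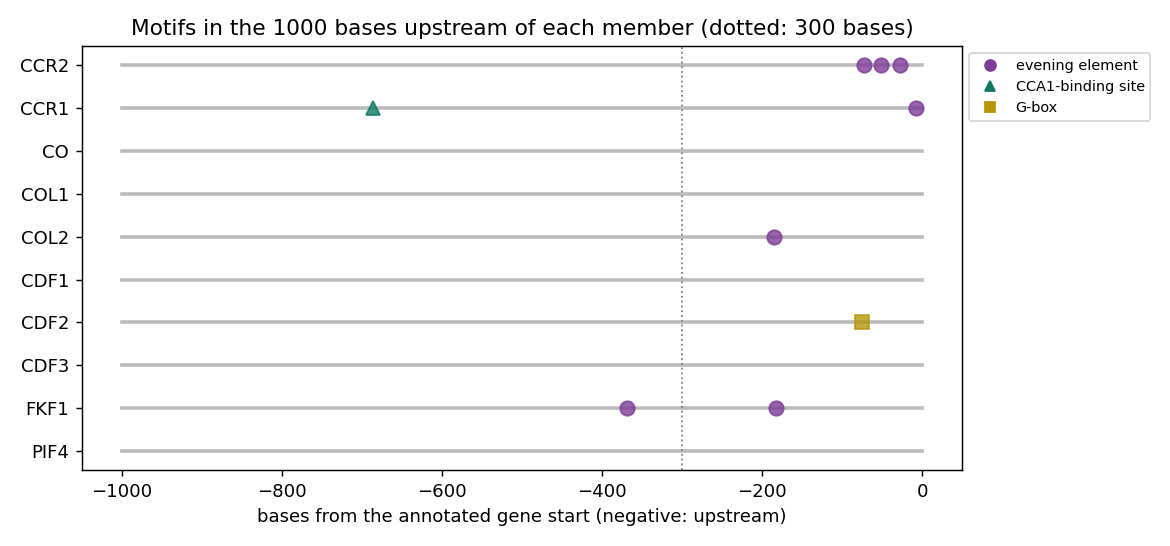
Positions of the 3 searched motifs in the 1000 bases upstream of each member, by distance in bases from the annotated gene start (horizontal axis), 1 line per gene. Evening elements stand in CCR2, CCR1, COL2 and FKF1, and the 3 of CCR2 lie within 76 bases of the start.

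In dvl1-1D, both RNA-binding genes and FKF1 were lower than in wild type, CDF2 and COL2 were higher, CDF3 and PIF4 were slightly higher, and CDF1 stood at the wild-type level. Of the 10 members, 8 reached the level needed for testing, 1 RPKM in at least 3 libraries. FKF1 was under 1 RPKM in every dvl1-1D library and entered the test through the other groups. In limma, fitted to log2(RPKM + 1) of all 20223 tested genes with Benjamini-Hochberg adjustment, 7 of the 8 passed an adjusted p of 0.05 in dvl1-1D over wild type, 4 higher and 3 lower, where 30.8% of all tested genes passed, 16.7% higher and 14.0% lower. The median fold change of the 8 members was 0.09 (log2), beside 0.02 over all tested genes. The 7 were also the members whose 3 dvl1-1D libraries did not overlap the 3 wild-type libraries, as was so for 47.0% of all tested genes. The members had been chosen with this comparison known, so the count supports nothing by itself. In bulk tissue, fewer cells of a type and less RNA per cell cannot be told apart.

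**Figure D2:**
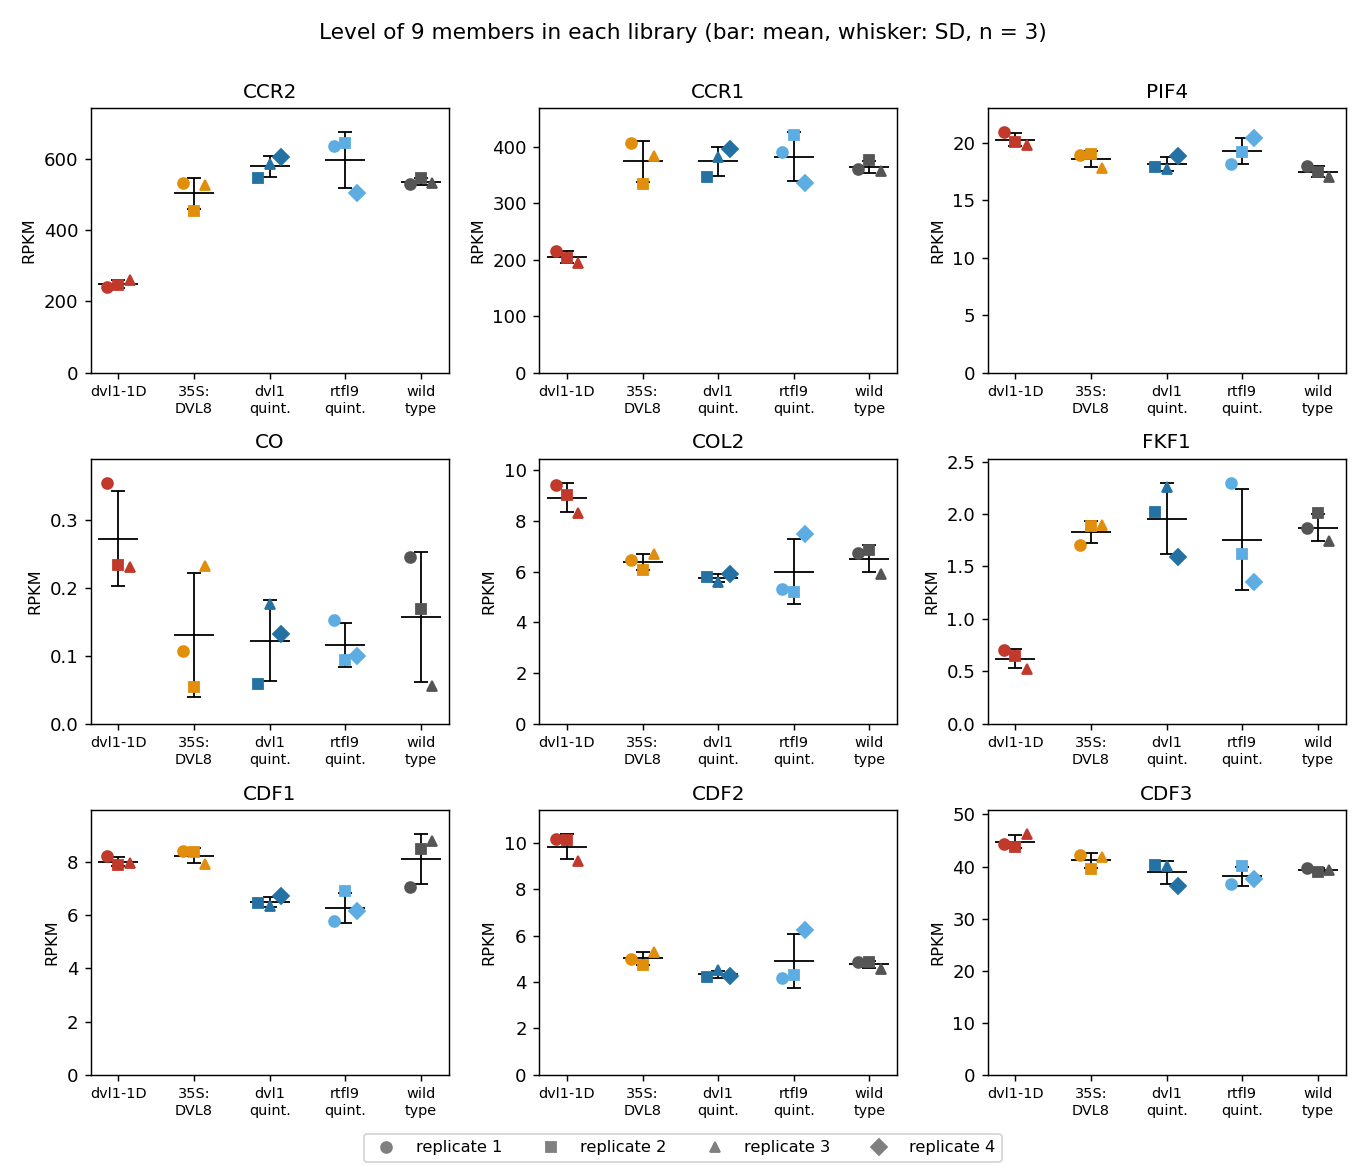
RPKM of 9 members in each of 15 libraries by group (horizontal axis), with the mean and SD of 3 replicates, each panel from 0. CCR2, CCR1 and FKF1 are lowest and CDF2 and COL2 highest in dvl1-1D, and rtfl9 quintuple replicate 4 (diamond) stands apart from its group for COL2, CDF2 and CCR2. COL1 was 0 in all libraries and is not drawn.

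CCR2 and CCR1 are glycine-rich RNA-binding proteins. CCR2 regulates the splicing of its own transcript and of CCR1, and the RNAs of both cycle with an evening peak. CCR2 had 239.5, 246.1 and 260.2 RPKM in dvl1-1D, and 530.1, 546.9 and 532.0 RPKM in wild type. All 3 dvl1-1D libraries were thus below 0.5 times the lowest wild-type library. The other groups sat near wild type, with 531.8, 454.3 and 527.7 RPKM for 35S:DVL8, 547.6, 586.7 and 605.2 RPKM for the dvl1 quintuple, and 637.2, 646.4 and 505.9 RPKM for the rtfl9 quintuple. By group mean the order was rtfl9 quintuple, dvl1 quintuple, wild type, 35S:DVL8 and dvl1-1D. Among these neighbours only dvl1 quintuple against wild type and 35S:DVL8 against dvl1-1D had ranges that did not overlap. The former gap was slight, between 547.6 RPKM in the lowest dvl1 quintuple library and 546.9 RPKM in the highest wild-type library. The log2 fold change of CCR2 was -1.11 ± 0.08 (SE) in dvl1-1D over wild type and -1.02 ± 0.08 in dvl1-1D over 35S:DVL8.

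CCR1 followed at a smaller fold. It had 214.7, 203.5 and 194.1 RPKM in dvl1-1D, and 360.2, 376.5 and 357.0 RPKM in wild type. All dvl1-1D libraries were below all others. The means in the remaining groups were 374.0 ± 36.8 RPKM for 35S:DVL8, 374.2 ± 25.5 RPKM for the dvl1 quintuple and 381.9 ± 43.3 RPKM for the rtfl9 quintuple (SD, n = 3 each), and these 3 ranges overlapped the wild-type range. The log2 fold change was -0.83 ± 0.08 (SE) in dvl1-1D over wild type and -0.87 ± 0.08 over 35S:DVL8. The coding sequences of CCR2 and CCR1 are 80.4% identical over their aligned bases, and the longest stretch of exon sequence they share exactly is 39 bases, shorter than a read of 150 bases.

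Within a library, the mean ratio of CCR2 to CCR1 was 1.22 ± 0.11 for dvl1-1D and 1.35 ± 0.04 for 35S:DVL8, against 1.47 ± 0.02 for wild type (SD, n = 3 each). Both mutants exceeded wild type in this ratio, with 1.55 ± 0.03 for the dvl1 quintuple and 1.56 ± 0.06 for the rtfl9 quintuple. The dvl1-1D ratios ran between 1.12 and 1.34 and lay below those of the mutants and wild type. They overlapped those of 35S:DVL8, at 1.31 to 1.38.

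FKF1 is an F-box protein with a blue-light-sensing LOV domain that targets CDF proteins for degradation. It was the member with the largest proportional drop in dvl1-1D, on few reads: 0.698, 0.647 and 0.518 RPKM in dvl1-1D, from 102 reads in all, and 1.87, 2.01 and 1.74 RPKM in wild type, from 342 reads. No dvl1-1D library came near the other 12, of which the lowest, rtfl9 quintuple replicate 4, had 1.35 RPKM. Group means were 1.83 ± 0.106 RPKM for 35S:DVL8, 1.95 ± 0.338 RPKM for the dvl1 quintuple and 1.76 ± 0.483 RPKM for the rtfl9 quintuple (SD, n = 3 each), and these ranges overlapped wild type. The log2 fold change in dvl1-1D over wild type was -0.83 ± 0.12 (SE) with a pseudocount of 1 RPKM and -1.46 with 0.1 RPKM, since a pseudocount of 1 understates changes at such levels.

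CDF1, CDF2 and CDF3 are DOF-type transcription factors. The Arabidopsis CDF proteins repress CO and FT redundantly. In these inflorescences they did not move together. CDF2 had 10.2, 10.1 and 9.24 RPKM in dvl1-1D, and 4.85, 4.85 and 4.58 RPKM in wild type. No other library reached the dvl1-1D range: the next was rtfl9 quintuple replicate 4 at 6.23 RPKM, while its sister libraries had 4.16 and 4.33 RPKM. The log2 fold change was 0.91 ± 0.10 (SE) in dvl1-1D over wild type and 0.85 ± 0.10 over 35S:DVL8.

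CDF1 had 8.22, 7.90 and 7.95 RPKM in dvl1-1D, and 7.06, 8.51 and 8.78 RPKM in wild type, with full overlap and a log2 fold change of -0.01 ± 0.07 (SE). Its lower values were instead in the quintuple mutants, described with those comparisons. CDF3, the most abundant of the 3, had 44.4, 43.8 and 46.2 RPKM in dvl1-1D, and 39.7, 38.9 and 39.4 RPKM in wild type. The dvl1-1D libraries were higher without overlap, by a log2 fold change of only 0.18 ± 0.05 (SE). Over 35S:DVL8, at 42.2, 39.5 and 41.8 RPKM, the fold change of CDF3 was 0.12 ± 0.05 and did not pass.

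These unequal changes showed in ratios taken within each library. CDF2 stood at 1.23 ± 0.061 times CDF1 in dvl1-1D and at 0.593 ± 0.085 times CDF1 in wild type (SD, n = 3 each), with ratios of 1.16 to 1.28 in dvl1-1D and 0.521 to 0.687 in wild type. The mean ratio was 0.610 for 35S:DVL8, 0.666 for the dvl1 quintuple and 0.787 for the rtfl9 quintuple, whose highest library reached 1.01. CDF3 over CDF2 was 4.56 ± 0.38 in dvl1-1D and 8.26 ± 0.30 in wild type (SD, n = 3 each).

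**Figure D3:**
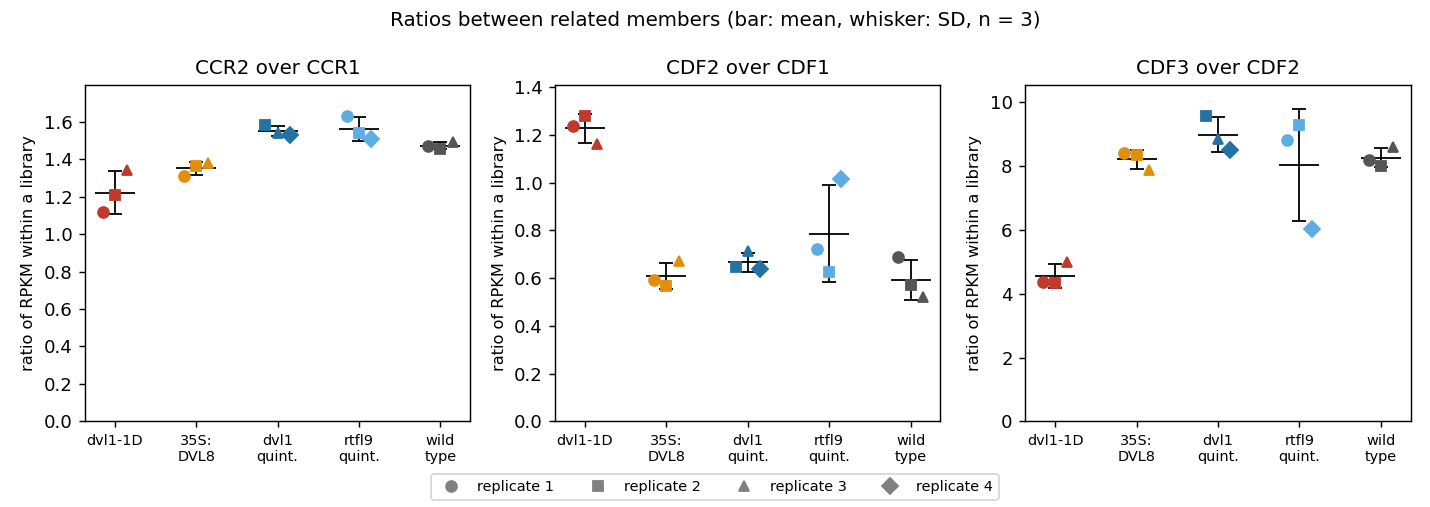
Ratios of RPKM within each library for CCR2 over CCR1, CDF2 over CDF1 and CDF3 over CDF2, by group (horizontal axis), with mean and SD of 3 replicates and vertical axes from 0. CDF2 exceeds CDF1 in all 3 dvl1-1D libraries and in rtfl9 quintuple replicate 4, and in no other library.

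CO, a zinc-finger and CCT-domain protein, is the activator of FT in long days. It was near the limit of detection, with 22, 17 and 16 reads in dvl1-1D, against 15, 13 and 5 in wild type. 35S:DVL8 libraries had 8, 4 and 21 reads, dvl1 quintuple libraries 4, 13 and 13, and rtfl9 quintuple libraries 13, 7 and 6. In read number the dvl1-1D libraries were above those of the mutants and wild type and overlapped those of 35S:DVL8. In RPKM, which allows for depth, the lowest dvl1-1D library (0.230) lay below the highest wild-type library (0.245). Summed over libraries this was 0.723 RPM, reads scaled to library size (95% interval 0.545 to 0.942) in dvl1-1D and 0.390 (0.268 to 0.548) in wild type, a ratio of 1.86 (1.18 to 2.95). These exact Poisson intervals cover counting error only, not the spread between plants, and CO was below the level tested. In addition 25.4% of its exon bases in the RefSeq annotation lie under genes annotated on the opposite strand. The deposited values of CO did not give whole reads at its RefSeq length, so its read numbers rest on a length fitted to those values.

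COL1, the neighbour and a close relative of CO, was listed at 0 in all 15 libraries. All 1698 of its exon bases are also exon of the long noncoding RNA AT5G15845 on the opposite strand. Counting ignored strand, as the title of the deposited table states. Among protein-coding genes whose exon bases are all shared with another gene, 367 of 368 (99.7%) were 0 in every library, beside 985 of 19818 (4.97%) with no shared base. AT5G15845 itself had 44 reads in dvl1-1D and 30 in wild type, summed over 3 libraries each. The listed 0 of COL1 is therefore no measure of its expression.

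COL2 shares the B-box and CCT domains of CO. It had 9.43, 9.02 and 8.30 RPKM in dvl1-1D, and 6.76, 6.87 and 5.90 RPKM in wild type. The dvl1-1D libraries were the highest of all 15, and rtfl9 quintuple replicate 4 was next with 7.48 RPKM. By mean the order was dvl1-1D, wild type, 35S:DVL8 (6.06 to 6.68), rtfl9 quintuple (5.18 to 7.48) and dvl1 quintuple (5.59 to 5.91 RPKM), and after dvl1-1D every neighbour overlapped the next. The log2 fold change was 0.40 ± 0.10 (SE) in dvl1-1D over wild type and 0.42 ± 0.10 over 35S:DVL8. Genes on the opposite strand share 31.8% of its exon bases.

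PIF4 is a bHLH factor that promotes elongation growth in warmth and shade and is restrained by phytochrome B and by the evening complex of the clock. It had 20.9, 20.1 and 19.9 RPKM in dvl1-1D, and 18.0, 17.5 and 17.1 RPKM in wild type. The groups did not overlap, at a log2 fold change of 0.20 ± 0.05 (SE). rtfl9 quintuple replicate 4, at 20.4 RPKM, lay within the dvl1-1D range. Over 35S:DVL8 the fold change was 0.12 ± 0.05 and did not pass.

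The comparison of dvl1-1D with 35S:DVL8, lines that overexpress different DVL genes, gave 5 of 8 members past the adjusted p of 0.05, where 32.4% of all tested genes passed, 18.6% higher and 13.8% lower. COL2 and CDF2 were higher and CCR2, CCR1 and FKF1 lower. All members but CDF1 had ranges apart between the lines, 7 of 8 beside 44.1% of all tested genes. It shares its dvl1-1D libraries with the comparison to wild type and is not independent of it.

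No member passed the test in 35S:DVL8 over wild type. Of 8 tested, 0 reached an adjusted p of 0.05 in limma and 0 had an unadjusted p under 0.05, where 0.138% of all tested genes (28) passed. None had a range apart from wild type, as 16.4% of all tested genes had. limma-voom on recovered reads also called 0. The log2 fold change of CCR2 was -0.09 ± 0.08 (SE; 95% interval -0.27 to 0.09; limma adjusted p = 0.801), and that of CDF2 was 0.06 ± 0.10 (-0.16 to 0.28; limma adjusted p = 0.908). FKF1 had -0.02 ± 0.12 (-0.28 to 0.24; limma adjusted p = 0.979). These intervals leave out changes of the size seen in dvl1-1D. The smallest adjusted p among the members was 0.608, for PIF4 at 0.08 ± 0.05.

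In the dvl1 quintuple, 0 of 8 members passed in limma and 0 in limma-voom, 1 had an unadjusted p under 0.05, and 0.0297% of all tested genes (6) passed. The member with the lowest unadjusted p was CDF1, with 6.48, 6.34 and 6.71 RPKM in the mutant, and 7.06, 8.51 and 8.78 RPKM in wild type. The ranges did not overlap, and the log2 fold change was -0.28 ± 0.07 (SE; 95% interval -0.44 to -0.12; limma adjusted p = 0.425). CCR2 and CDF2 also had ranges apart from wild type, at 0.11 ± 0.08 and -0.11 ± 0.10 (limma adjusted p = 0.792 and 0.846). Ranges apart were found for 16.5% of all tested genes.

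In the rtfl9 quintuple, 0 of 8 members passed in limma, 2 had an unadjusted p under 0.05, and 1.23% of all tested genes (249) passed. CDF1 had 5.77, 6.90 and 6.15 RPKM in the mutant, below all 3 wild-type libraries at 7.06, 8.51 and 8.78 RPKM. Its log2 fold change was -0.32 ± 0.07 (SE; 95% interval -0.48 to -0.16), and its limma adjusted p of 0.0532 missed the threshold narrowly. It passed without 35S:DVL8 replicate 2 (0.0499) and without wild-type replicate 1 (-0.41, 0.0481). It also passed with a filter of 5 RPKM (0.0467), with array weights (0.0199) and in limma-voom (-0.39, 0.0419). In 20 of 25 alternatives it did not pass, with a limma adjusted p of 0.145 without rtfl9 quintuple replicate 4 and at most 0.245. PIF4 had 18.2, 19.2 and 20.4 RPKM in the mutant, above the 17.1 to 18.0 RPKM of wild type, with a fold change of 0.13 ± 0.05 (limma adjusted p = 0.216). Ranges apart from wild type were found for 21.1% of all tested genes.

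The quintuple mutants differ in carrying dvl1 or rtfl9. None of the 8 members passed between them in limma, 0 had an unadjusted p under 0.05, limma-voom called 0, and 0.0148% of all tested genes (3) passed. CDF1 had a fold change of 0.05 ± 0.07 (95% interval -0.11 to 0.21; limma adjusted p = 0.998) in the dvl1 quintuple over the rtfl9 quintuple.

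**Figure D4:**
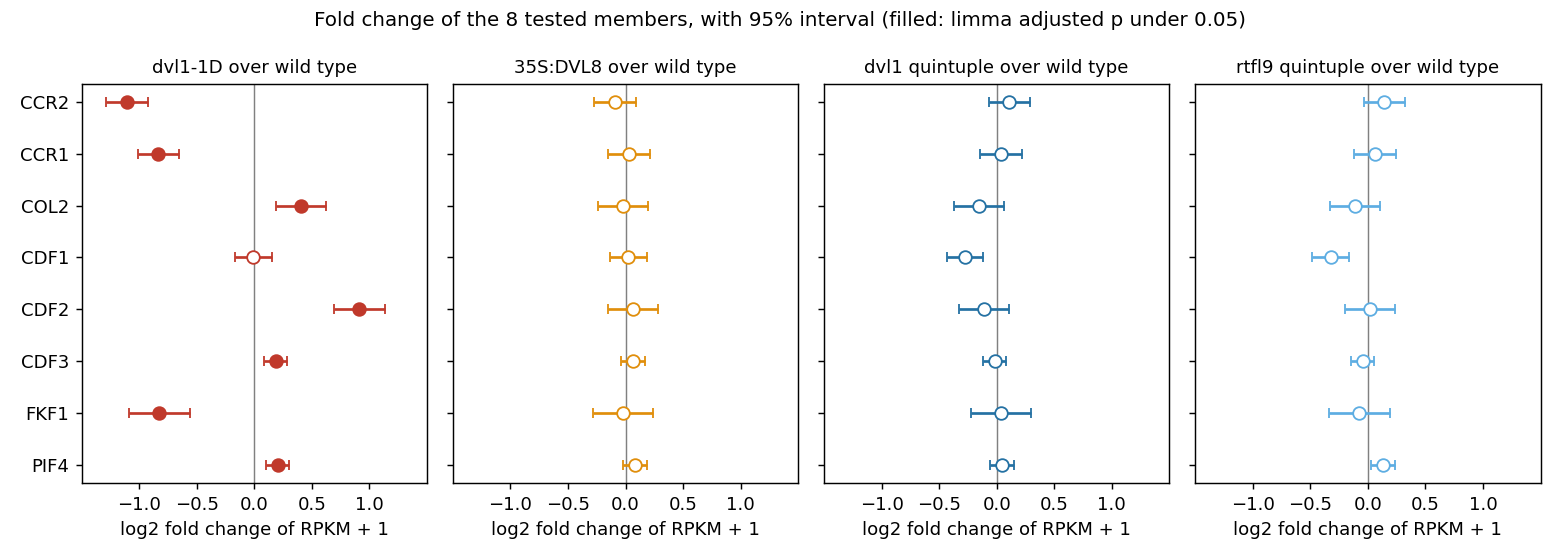
log2 fold change of RPKM + 1 with its 95% interval (horizontal axis) for the 8 tested members, 1 panel per line over wild type. Filled points, those with a limma adjusted p under 0.05, occur only for dvl1-1D, where CDF1 is the 1 open point. The 4 panels share the wild-type libraries.

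Some libraries stood apart from their groups. rtfl9 quintuple replicate 4 lay towards the dvl1-1D levels for CCR2 (505.9 RPKM, beside 637.2 and 646.4 in replicates 1 and 2), for COL2, for CDF2 and for FKF1. The morning clock gene LHY moved with them: it had 18.5 RPKM in that library, and 8.11 and 8.24 RPKM in its sister libraries. 35S:DVL8 replicate 2 was lower still for CCR2, at 454.3 RPKM, but was the lowest of its group for COL2 and CDF2. The dvl1 quintuple replicate 4 was low for FKF1 (1.59 RPKM, beside 2.02 and 2.25 in replicates 2 and 3). Its CCR2 (605.2 RPKM) and LHY (8.82 RPKM) did not lie towards dvl1-1D. What set these libraries apart was not tested. Without rtfl9 quintuple replicate 4 the fold changes over wild type were 0.26 for CCR2, -0.26 for COL2, -0.14 for CDF2 and 0.03 for FKF1 (limma adjusted p = 0.124, 0.157, 0.473 and 0.959). With it they were 0.14, -0.12, 0.02 and -0.07, so CDF2 and FKF1 changed sign and still none passed. Leaving it out together with 35S:DVL8 replicate 2, which was low for CCR2 and CCR1, brought CCR2 past the threshold (limma adjusted p = 0.0210).

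Genes that act with the members were followed in lists set by role. In dvl1-1D over wild type these lists, like the members, are described by counts and without p-values, beside the 30.8% of all genes that passed. The core clock list had 5 higher and 6 lower of 15 tested. LHY had 44.9, 42.2 and 38.5 RPKM in dvl1-1D, and 10.8, 10.6 and 10.2 RPKM in wild type, a log2 fold change of 1.89 ± 0.21 (SE). PRR5, a repressor of LHY and CCA1, had 6.63, 6.96 and 6.85 RPKM in dvl1-1D, and 20.5, 17.8 and 19.1 RPKM in wild type, at -1.36 ± 0.16. RVE8 (0.71) and LNK2 (0.61), activators of evening genes, were higher, and ELF4 (-0.62), of the evening complex, and PRR3 (-0.61) were lower. CCA1 was higher by only 0.25, at 24.9 ± 0.887 RPKM in dvl1-1D and 20.8 ± 0.299 RPKM in wild type (SD, n = 3 each). RVE4 (0.43) was also higher, and ELF3 (-0.38) and PRR7 (-0.21) were lower. TOC1 (-0.13), PRR9 (-0.16), LUX (-0.18) and RVE6 (0.10) did not pass. ELF4 lost its call in 11 of 25 alternatives, among them the removal of any 1 dvl1-1D or wild-type library. LNK1 (-0.14) was among the 6 lower and lost its call in 3, without dvl1-1D replicate 1 or 3 or wild-type replicate 1. The labels give no hour of harvest for any library, so genotype and time of day cannot be told apart in the members' values.

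Among relatives of CCR2 and CCR1, 3 of 4 tested glycine-rich RNA-binding genes were lower and none higher: GRP4 (-0.38), GRP2 (-0.34) and GRP3 (-0.26). GRP4 was also the 1 gene of all lists to pass outside dvl1-1D, higher in the rtfl9 quintuple at 60.1 ± 5.6 RPKM, against 48.5 ± 0.626 RPKM in wild type (SD, n = 3 each; 0.30 ± 0.06; limma adjusted p = 0.0385). That call was lost in 11 of 25 alternatives, among them the fits without any 1 of the 3 wild-type libraries, without rtfl9 quintuple replicate 1 or 4, without dvl1-1D replicate 1 and without dvl1 quintuple replicate 2, with a highest adjusted p of 0.172. Of the other CO-like and B-box genes, 5 of 8 were higher and 1 lower. COL5 moved most, with 155.5 ± 9.63 RPKM in dvl1-1D and 94.9 ± 6.76 RPKM in wild type (SD, n = 3 each; 0.71 ± 0.09). BBX19 (0.38), BBX25 (0.22), COL4 (0.21) and BBX24 (0.20) were higher and BBX18 (-0.23) lower, a call lost without wild-type replicate 1.

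Around FKF1 and the CDFs few of the tested genes passed. GI, which binds FKF1 in the afternoon, was lower (-0.41 ± 0.07). The FKF1 relatives ZTL (-0.02) and LKP2 (0.20) did not pass. None of 5 tested genes among 7 further CDF-family genes and FBH activators of CO passed. CDF5 and FBH4 were below the level tested. CDF5 had 1.12 ± 0.136 RPKM in dvl1-1D and 0.590 ± 0.0701 RPKM in wild type (SD, n = 3 each). FBH4 had 0.732 ± 0.0519 RPKM in dvl1-1D and 0.624 ± 0.111 RPKM in wild type. Of 9 genes that control CO protein, 4 were higher and none lower, and all 4 were photoreceptors: PHYB (0.42), CRY1 (0.35), PHYA (0.34) and CRY2 (0.26). COP1 and the SPA genes, which remove CO in darkness, did not pass. Downstream of CO, FT had 28.3 ± 2.97 RPKM in dvl1-1D and 37.8 ± 2.00 RPKM in wild type (SD, n = 3 each), a log2 fold change of -0.41 ± 0.14 that passed. The call for FT was lost in 10 of 25 alternatives, 9 of them the removal of a single library, including any 1 wild-type library and dvl1-1D replicate 1 or 3. SOC1, with a log2 fold change of 0.04, did not pass, and TSF was below the level tested.

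Around PIF4, 2 of 4 other PIF genes were higher, PIF1 (0.30) and PIF5 (0.18). Of 9 genes known as PIF4 targets, 8 were tested and 5 were higher, none lower. ATHB2, a homeodomain gene of the shade response, had 32.5 ± 4.64 RPKM in dvl1-1D and 10.6 ± 0.714 RPKM in wild type (SD, n = 3 each; 1.52 ± 0.15). PIL1 had 15.2 ± 1.87 RPKM in dvl1-1D and 4.93 ± 0.203 RPKM in wild type (1.45 ± 0.20), and the cell-wall gene XTH15 (0.99), the auxin-response gene IAA19 (0.41) and PRE1 (0.35) followed. PRE1 lost its call in 9 of 25 alternatives and PIF5 in 6, in both cases with median-of-ratios scaling and without wild-type replicate 1 or 3 among them. YUC8 (-0.02), PRE5 (0.02) and HFR1 (0.18) did not pass. Of 5 other clock outputs tested, 1 was higher (TCP21, 0.28), a call lost without dvl1-1D replicate 3 and without wild-type replicate 1 or 2.

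Some floral and pollen genes also passed in dvl1-1D over wild type, where 30.8% of all tested genes passed. Of the 8 inflorescence markers, 3 were higher in dvl1-1D, CRC (0.57), AG (0.37) and STM (0.31), and none lower. AP1, AP3, PI, SEP3 and LFY did not pass. Of 3 mature pollen genes 2 were higher, TIP1;3 (0.65) and PPME1 (0.36), and PPME1 lost its call in 13 of 25 alternatives, 10 of them the removal of a single library, including any 1 wild-type or dvl1 quintuple library, dvl1-1D replicate 2, 35S:DVL8 replicate 1 and rtfl9 quintuple replicate 1 or 2. For the 3 pollen genes the summed level was 456.8 to 619.7 RPKM in dvl1-1D and 398.7 to 442.7 RPKM in wild type. The other lines were lower than wild type by median, at 283.9 to 398.7 RPKM in 35S:DVL8, 337.4 to 380.4 RPKM in the dvl1 quintuple and 298.6 to 354.0 RPKM in the rtfl9 quintuple. The part of floral and pollen genes in the members' levels was not tested.

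**Figure D5:**
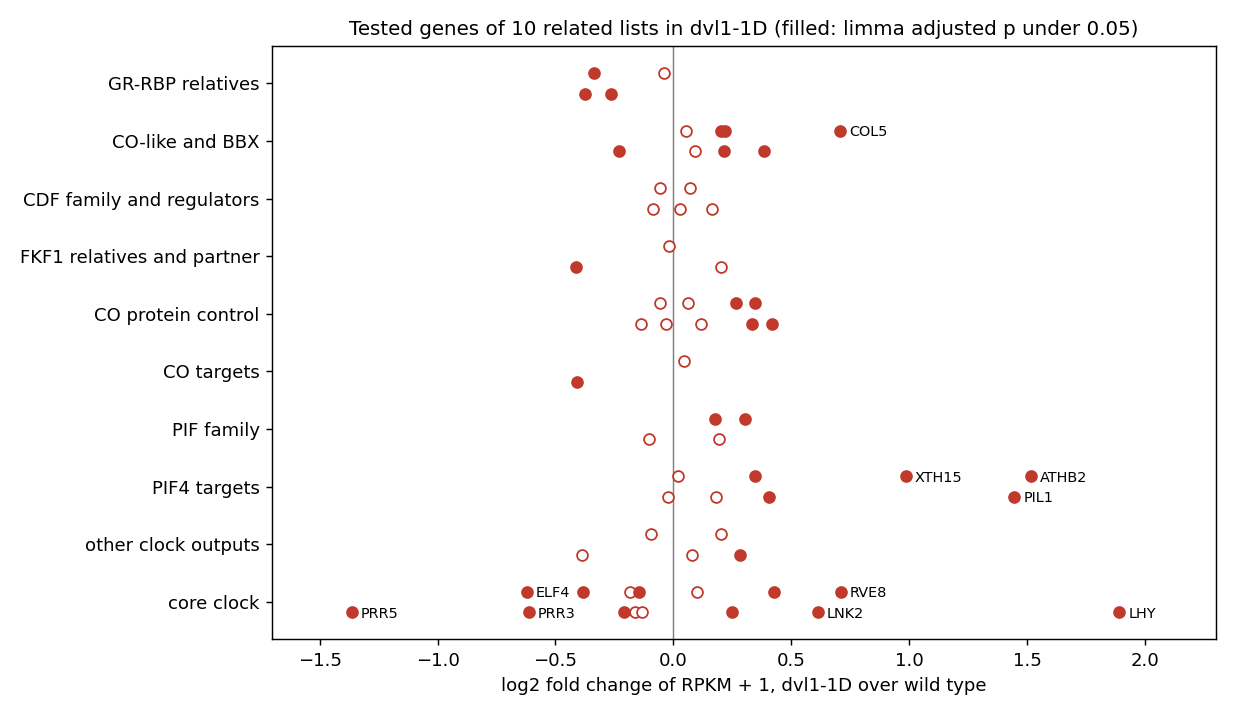
log2 fold change of RPKM + 1 in dvl1-1D over wild type (horizontal axis) for each tested gene of 10 role lists, members left out. Filled points have a limma adjusted p under 0.05, and genes beyond 0.6 in either direction are named. LHY, ATHB2 and PIL1 lie farthest to the right and PRR5 farthest to the left.

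Outside dvl1-1D none of these list genes passed in 35S:DVL8, in the dvl1 quintuple or between the quintuples in limma, and GRP4 was the sole one in the rtfl9 quintuple.

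Across the 15 libraries the members' log2 levels were compared with those of all tested genes by Pearson's r, as a description, since the 3 dvl1-1D libraries form a cluster of their own for most members. Nearest to CCR2 was PAB8 (r = 0.987), to CCR1 AT1G19370 (0.979), and to CDF2 AT1G14890 (0.984). The second nearest gene to COL2 was CCA1 (0.964) and to FKF1 was PRR5 (0.969), after AT3G03150 (0.971) and TBL26 (0.969). Over the 12 libraries without dvl1-1D these values were 0.860 for PAB8, 0.676 for AT1G19370, 0.820 for AT1G14890, 0.878 for CCA1 and 0.808 for PRR5. CDF1 was nearest to NdhM (0.899), CDF3 to UBL5 (0.952) and PIF4 to AT1G50040 (0.928).

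Between members, CCR2 and CCR1 had r = 0.977 over 15 libraries and 0.764 over the 12 without dvl1-1D. COL2 and CDF2 had 0.947 over all libraries and 0.871 without dvl1-1D, with rtfl9 quintuple replicate 4 high in both. CCR2 and FKF1, at 0.917 over all libraries, had 0.211 without dvl1-1D.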

How the data were processed

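RNA from whole inflorescences was sequenced as paired 150-base reads on an Illumina NovaSeq, per the labels' protocols. Tools listed, per the submitters' processing notes and with no version, are HISAT2, HTSeq and cutadapt. No source used here names a genome build. Values were deposited by the authors as RPKM per gene in 1 table, counted without strand per its name. Of 29911 genes above 0, 21996 (73.5%) gave whole reads (within 0.005 reads) at their RefSeq exon length. For the rest, CO among them, a length that gave whole reads was searched for. Whole reads in those genes are therefore no check of the recovery. Of 37336 identifiers, 37051 matched RefSeq TAIR10.1, whose names, coordinates and sequences were used. The authors' 5 excluded libraries were not analysed.

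Tests covered the 20223 genes that reached 1 RPKM in 3 or more libraries and ran on log2(RPKM + 1), computed from the deposited RPKM, with limma 3.58.1 in R 4.3.3: 1 fit of 15 libraries in 5 groups, Benjamini-Hochberg adjustment over all genes, threshold 0.05. The fit was also run on simulated data, in which far fewer genes changed than passed in dvl1-1D. That run is therefore no check of the calls given here. Values are not counts, so no count model was the main test. An exact permutation test of 3 against 3 libraries cannot give a p below 0.1. Replicate pairs differed beyond sampling noise, so none was merged.

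All 10 members are named. From each role list up to 6 genes that passed are named by size of fold, beside some that did not pass. The core clock list is named in full. For each member, genes nearest to it by Pearson's r are named. The members and lists were chosen with earlier results of these data known. Alternatives were other pseudocounts, filters, scalings, weights and fits, and leaving out each library.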

Additional observations from a re-analysis of the deposited data

How the results depend on the processing

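Fold changes for 48 results were recomputed under 25 alternatives, 1194 in all. Of these, 1186 stayed on their side of the threshold, 8 came to pass it and 0 lost it. Among folds that passed in either fit 0 reversed direction, while folds that did not pass could change sign. The number of members passing in the rtfl9 quintuple over wild type was 0 and became 1 with a filter of 5 RPKM, with array weights, with limma-voom on recovered reads (added after seeing the data) and with rtfl9 quintuple replicate 4 left out along with 35S:DVL8 replicate 2. Leaving out single libraries gave 0 to 1 there. The gene was CDF1, lower, except for CCR2, higher, in the last of these fits. Over wild type, dvl1-1D gave 7 in every alternative but the 5 RPKM filter (6), which does not test FKF1. Of 39 list genes that passed in dvl1-1D over wild type, 31 passed in every alternative and 8 lost their call in at least 1. In dvl1-1D over 35S:DVL8, PIF4 passed with array weights and CDF3 without dvl1 quintuple replicate 4. Over all genes in dvl1-1D, 54.4% of those passing were higher, 46.1% with median-of-ratios scaling and 44.3% with quantile normalization. The 249 genes of the rtfl9 quintuple became 57 with no filter on low values and 668 with array weights, which gave 306 in 35S:DVL8, and ranged from 8 to 409 as single libraries were left out. The 28 genes of 35S:DVL8 became 241 in limma-voom and ranged from 7 to 289, and the 6 of the dvl1 quintuple became 152 with only its libraries and wild type fitted and ranged from 4 to 124 (the highest without 35S:DVL8 replicate 2). With replicate number as a block, 7 members passed in dvl1-1D over wild type, 5 over 35S:DVL8 and 0 elsewhere. Genome-wide, the block gave 9 genes in the rtfl9 quintuple and 13 in 35S:DVL8. Same-numbered libraries did not in general deviate together. The median r was -0.007 over 23 same-numbered pairs and 0.013 over 67 others, and 2 of 15 libraries correlated best with their own number. Those 2 were replicate 4 of the dvl1 quintuple and of the rtfl9 quintuple, whose r of 0.381 was the highest of all pairs. The planned quasi-likelihood count test was not run, because the files hold RPKM. Depth limits CO, at 4 to 22 reads per library, and FKF1, at 29 to 38 reads per dvl1-1D library.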
